A study of Homo sapiens and Mus musculus with 10 samples.

Results

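Accessible chromatin was examined at the genes of 9 transcription factors and cofactors that act beside GATA factors in erythroid cells: TAL1, KLF1, LMO2, LYL1, NFE2, ZFPM1, GFI1B, MYB and LDB1. The genes were taken by name and not by a rule on measured values, but with earlier results of these data known. They are 9 of the 19970 protein-coding genes on the autosomes and X in GENCODE release 44. Bulk ATAC-seq, in which the Tn5 transposase inserts adapters into open chromatin, was carried out on nuclei of thawed cells of 5 lines with 2 libraries each, and no treatment is named. The 4 human lines are used here. GM12878 is a B-lymphoblastoid line, HEK293T derives from embryonic kidney and expresses SV40 large T antigen, HFF1 cells are foreskin fibroblasts and K562 an erythroleukaemia line. K562 is a leukaemia line and not a normal erythroid precursor. The labels do not say whether the 2 libraries of a line came from separate cultures, so the spread between them may be technical.

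TAL1, a basic helix-loop-helix protein, binds E-box sequences together with an E protein and is held next to GATA1 by the bridging proteins LMO2 and LDB1. LYL1 is a close relative of TAL1. KLF1 binds CACCC sequences in globin promoters, NFE2 pairs with small MAF proteins at the globin locus control region, ZFPM1 (FOG1) is a cofactor that GATA1 contacts through its zinc fingers, GFI1B is a repressor that recruits the demethylase KDM1A, and MYB keeps progenitors dividing and falls as red cells mature. Many of these genes are known to be controlled by distal enhancers that carry GATA and E-box sites.

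Each library comes as a list of called peaks. A promoter call below means that both libraries of a line had a peak that comes within 1 kb of any start annotated for the gene. Overlapping peaks from the 8 human lists were joined into regions. Such a region is called in a line when both libraries have a peak in it, and it is in K562 alone when, in addition, no library of the other human lines has a peak there. Positions are given from the first annotated start of the gene, negative upstream of it, and coordinates are those of hg38 counted from 1. The number of reads over a summit was recovered from the deposited fold and p-value of each peak under an assumed form of both, since the calling settings are not given in the sources used here. It is given to show the size of a peak within its library and is not compared between lines.

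The lists held 52137 to 127359 peaks on the autosomes and X. HEK293T was the shallowest line, with a recovered background of 0.465 and 0.466 reads per window against 1.71 to 2.43 in the other 6 human libraries, so the lack of a peak there weighs less than in the other lines. Of 5 erythroid marker genes fixed to check the labels, 4 had a promoter call in K562, among them GATA1, HBG2 and EPOR, and HBG1 had none. In each of the other human lines EPOR alone of these 5 was called. The B-cell markers were called in GM12878 for 5 of 5 genes, the fibroblast markers in HFF1 for 5 of 5 and the embryonic kidney markers in HEK293T for 4 of 5.

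The results turn on a small number of regions, and the sequences of some are shown first. The first set holds regions at start sites or within 100 kb that were called in K562 alone. Each is 101 bases of the plus strand of hg38 centred on the K562 summit, and capitals mark a match to AGATAA (the GATA site, read as TTATCT on the other strand), to CTG followed by 8 bases and AGATAA (E-box with GATA), to CCACACCC (KLF) or to TAACGG (MYB). The regions of MYB at −33.4 and −7.57 kb were chosen for their GATA matches after these were seen. The others meet the rule for named regions, but not all regions that meet it are shown. Left out are TAL1 at 0.239 kb, LMO2 at 0.494, −0.025 and −0.994 kb, GFI1B at 34.7 kb, MYB at −96.5 and 10.6 kb and LDB1 at 62.1 kb. None of those left out holds a GATA match, so the printed set is richer in GATA than the whole. A GATA match was in 10 of all 52 regions in K562 alone.
TAL1 promoter at −121 bp (chr1:47232296-47232396): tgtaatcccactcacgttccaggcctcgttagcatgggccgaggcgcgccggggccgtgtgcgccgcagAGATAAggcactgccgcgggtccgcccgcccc
TAL1 at 50.9 kb (chr1:47181280-47181380): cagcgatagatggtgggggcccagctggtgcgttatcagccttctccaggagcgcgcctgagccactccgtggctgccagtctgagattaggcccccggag
LMO2 at −52.8 kb (chr11:33944842-33944942): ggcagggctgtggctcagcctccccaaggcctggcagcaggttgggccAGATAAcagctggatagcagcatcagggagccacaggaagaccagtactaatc
NFE2 inner promoter at 5102 bp (chr12:54295863-54295963): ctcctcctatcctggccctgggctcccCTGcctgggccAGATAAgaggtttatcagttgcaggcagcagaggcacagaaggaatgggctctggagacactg
NFE2 at −6.24 kb (chr12:54307203-54307303): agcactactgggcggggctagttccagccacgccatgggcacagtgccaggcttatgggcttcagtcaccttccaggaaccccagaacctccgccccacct
GFI1B at 60.3 kb (chr9:133004210-133004310): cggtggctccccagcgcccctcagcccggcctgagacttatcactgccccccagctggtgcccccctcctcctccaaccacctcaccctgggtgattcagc
MYB at −71.0 kb (chr6:135110281-135110381): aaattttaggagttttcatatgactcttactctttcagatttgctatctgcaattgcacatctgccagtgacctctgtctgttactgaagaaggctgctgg
MYB at −33.4 kb (chr6:135147810-135147910): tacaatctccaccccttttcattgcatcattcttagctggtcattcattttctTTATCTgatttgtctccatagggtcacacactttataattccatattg
MYB at −7.57 kb (chr6:135173687-135173787): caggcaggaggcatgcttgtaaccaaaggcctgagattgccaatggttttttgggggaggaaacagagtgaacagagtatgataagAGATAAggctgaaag
LDB1 at 7.84 kb (chr10:102112476-102112576): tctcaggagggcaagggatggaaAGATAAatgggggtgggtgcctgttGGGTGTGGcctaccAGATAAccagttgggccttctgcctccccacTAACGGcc

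The second set holds RefSeq promoters on GRCh38.p14, each written along the gene 300 bases long and ending 50 bases after its start. LYL1 is shown because its promoter was called in 3 lines and holds a GATA match, and KLF1 because its promoter was called in no line.
LYL1 (chr19:13102809-13103108, minus strand): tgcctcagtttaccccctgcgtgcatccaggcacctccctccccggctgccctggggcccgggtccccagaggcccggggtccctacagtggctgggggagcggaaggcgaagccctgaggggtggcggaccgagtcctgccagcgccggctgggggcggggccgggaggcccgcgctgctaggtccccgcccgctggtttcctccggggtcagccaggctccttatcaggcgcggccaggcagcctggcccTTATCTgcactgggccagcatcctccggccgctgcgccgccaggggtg
KLF1 (chr19:12887152-12887451, minus strand): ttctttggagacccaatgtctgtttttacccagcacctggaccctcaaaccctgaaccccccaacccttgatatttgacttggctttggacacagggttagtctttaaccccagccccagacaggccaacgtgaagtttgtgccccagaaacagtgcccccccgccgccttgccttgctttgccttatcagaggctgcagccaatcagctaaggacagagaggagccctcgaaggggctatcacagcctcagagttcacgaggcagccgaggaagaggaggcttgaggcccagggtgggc

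The first question was where each factor gene had an open promoter. TAL1 was called in K562 alone, LYL1 in GM12878, HFF1 and K562 and KLF1 in no line, while LMO2, NFE2, ZFPM1, GFI1B, MYB and LDB1 were called in all 4 lines. By line, 7 of the 9 genes were called in GM12878 (71.9% of all protein-coding genes), 6 in HEK293T (67.8%), 7 in HFF1 (76.2%) and 8 in K562 (70.4%). The 6 of 9 genes called in all 4 lines stand beside 59.7% of all genes, the single gene called in no line beside 17.1%, and the single gene in K562 alone beside 1.12%. A call by gene does not show which of its start sites was open.

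Start sites were therefore taken singly. The 9 genes have 47 annotated start sites, with a median of 4 per gene against 5 over all genes. A peak within 1 kb was called in all 4 lines at 25 of them (53.2%, against 41.9% of 146165 start sites of all protein-coding genes) and in no line at 11 (23.4%, against 36.2%). In K562 alone it was called at 8 start sites (17.0%, against 1.17% of all start sites). These 8 lie in TAL1, LMO2 and NFE2, which are 3 of the 9 genes, and 4.62% of all genes have at least 1 such start site. Start sites of a gene often share a peak, so they are not independent.

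**Figure D1:**
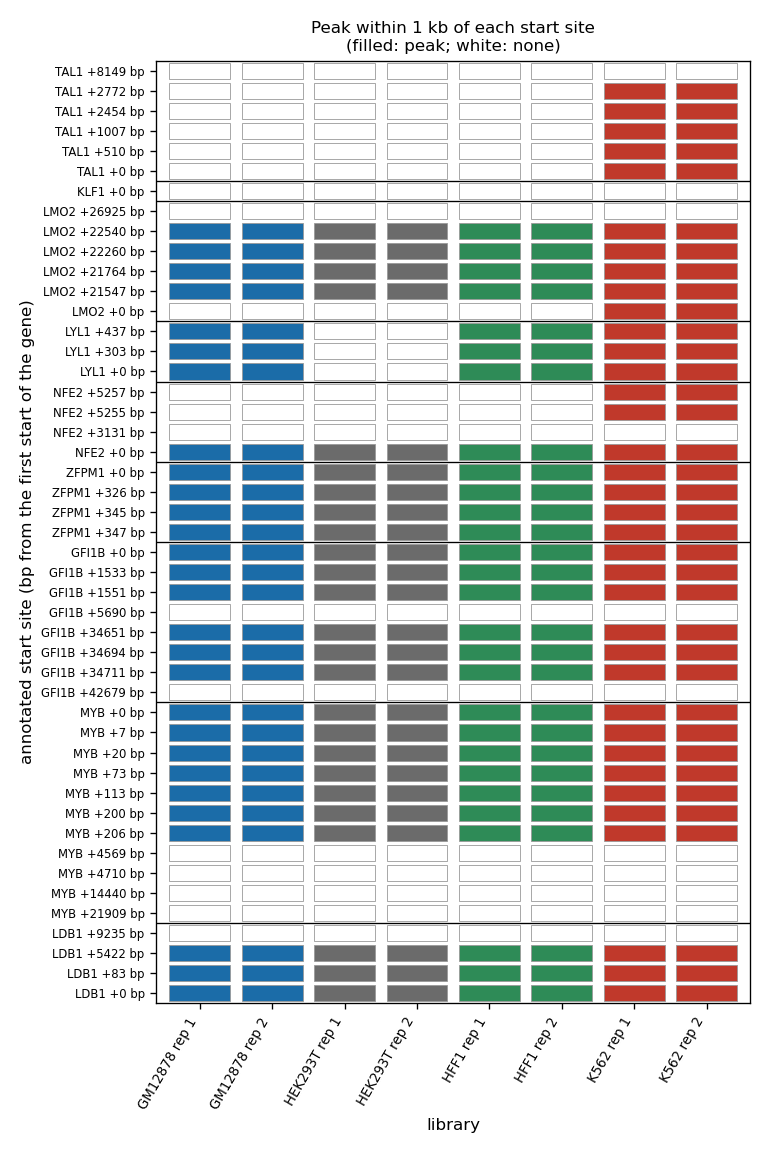
Each row is 1 of the 47 annotated start sites of the 9 genes, labelled by its distance in bp from the first start of the gene, and each column is 1 human library; a filled cell marks a peak within 1 kb of the start. K562 fills 5 of the 6 rows of TAL1, the first start of LMO2 and the inner starts of NFE2 with no other line beside it, and the starts of ZFPM1 are filled in all 8 libraries.

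TAL1 (ENSG00000162367.12, chr1:47216290-47232225, minus strand) had no peak within 1 kb of any of its 6 start sites in the 6 libraries of GM12878, HEK293T and HFF1. In K562, 5 of the 6 start sites had one in both libraries. The strongest, at −121 bp (chr1:47232155-47232622), had 124 and 118 reads over its summit in the 2 libraries, and its deposited folds over the local background, which are the authors' values, were 5.75 and 5.86. It ranked within the top 10.6% of peaks by p-value in both lists. A second region at 239 bp (chr1:47231014-47232047), in an exon of TAL1, had 66 and 62 reads. The 2 start sites farther into the gene, at 2454 and 2772 bp, were called from peaks that did not overlap between the libraries, with 55 reads at 2878 bp in the first and 44 reads at 2586 bp in the second. The start site at 8149 bp had no peak in any library.

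The first start of LMO2 (ENSG00000135363.12, chr11:33858576-33892076, minus strand), a bridging protein with 2 LIM domains, was open in K562 alone. There 3 regions were called, among them those at −994 bp with 51 and 39 reads and at 494 bp with 40 and 33 reads. The inner starts at 21547 to 22540 bp had a peak in all 8 libraries. At 22439 bp the summit held 24 and 26 reads in GM12878, 9 and 13 in HEK293T, 29 and 25 in HFF1 and 48 and 40 in K562. The region beside it at 21538 bp was called in HEK293T (12 and 12 reads), HFF1 (34 and 25) and K562 (60 and 50). It had no peak in GM12878, so the calls at the inner promoter differed in extent. Signal below the calling threshold was not compared. LMO2 therefore counts as open in all lines only through its inner starts.

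NFE2 (ENSG00000123405.14, chr12:54292111-54301015, minus strand) showed the same kind of split with the positions exchanged. Its first start had a region at −61 bp (chr12:54300797-54301222) called in all lines, with 32 and 35 reads in GM12878, 26 and 16 in HEK293T, 77 and 67 in HFF1 and 98 and 94 in K562. A start of COPZ1, a coatomer subunit gene on the other side, lies within 1 kb of it, so a peak there cannot be assigned to NFE2 by position. The inner starts at 5255 and 5257 bp had a region at 5102 bp (chr12:54295732-54296082) in K562 alone, with 90 and 89 reads. This is the region with the E-box and GATA match printed above. The start at 3131 bp had no peak in any library.

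GFI1B (ENSG00000165702.15, chr9:132944000-132991687, plus strand) was also open in all lines at starts it shares with a neighbour. Its first 3 starts, at 0 to 1551 bp, lie within 1 kb of starts of TSC1, a growth-control gene, and the region there had 105 and 87 reads in GM12878, 12 and 17 in HEK293T, 79 and 79 in HFF1 and 87 and 70 in K562. The inner starts at 34651 to 34711 bp were called in all lines through a region whose summit lies at 33862 bp, with 102 and 91 reads in GM12878, 16 and 10 in HEK293T, 58 and 28 in HFF1 and 64 and 55 in K562. The region that covers the inner starts themselves, with its summit at 34740 bp (chr9:132978536-132978855), was in K562 alone, with 40 and 36 reads. The count by start site does not show this, since the neighbouring region falls within 1 kb.

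LYL1 (ENSG00000104903.5, chr19:13099033-13103161, minus strand) has 3 starts within 437 bp and a single region over them (chr19:13102494-13103382). Its summit held 96 and 90 reads in GM12878, 44 and 31 in HFF1 and 116 and 104 in K562, and neither HEK293T library had a peak. In the lists of partners fixed for comparison, CBFA2T3, a corepressor of the TAL1 complex, and SSBP4, a single-stranded DNA-binding protein of the family that binds LDB1, had this same pattern of calls, which 3.92% of all genes share.

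ZFPM1 (ENSG00000179588.9, chr16:88453280-88537031, plus strand) had 1 promoter region in all lines, with 137 and 142 reads in GM12878, 30 and 31 in HEK293T, 103 and 88 in HFF1 and 112 and 103 in K562. MYB (ENSG00000118513.20, chr6:135181308-135219173, plus strand) likewise had a region at −79 bp in all lines, with 81 and 73, 26 and 24, 59 and 51, and 88 and 74 reads in the same order. Another region called in all lines followed at 2727 bp, inside an intron of MYB. The promoters of both genes were open in fibroblasts and kidney cells as in K562.

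LDB1 (ENSG00000198728.11, chr10:102106489-102120368, minus strand), which dimerises and brings distant sites together, was open in all lines at 5336 bp and at −140 bp. It was the only one of the 9 genes with a start-site region in another line alone. A region at 879 bp was in GM12878 alone with 61 and 77 reads, and a region at −1097 bp was in HFF1 alone with 67 and 64 reads. No start-site region of LDB1 was in K562 alone.

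KLF1 (ENSG00000105610.6, chr19:12884422-12887201, minus strand) has a single annotated start and no peak within 1 kb of it in any of the 8 libraries. Within the gene, a region whose summit lies at 1914 bp (chr19:12884969-12885966) was called in GM12878 with 87 and 80 reads, in HFF1 with 53 and 38 and in K562 with 93 and 91, and had no peak in HEK293T. When the promoter window is widened to 2 kb on either side, 8 of the 9 genes are called in GM12878 (75.1% of all genes), 6 in HEK293T (70.2%), 8 in HFF1 (78.8%) and 9 in K562 (73%), and KLF1 is the gene gained.

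For comparison, 42 partners and other haematopoietic factors and 25 erythroid target genes were read in the same way. Of the partners, 39 had a promoter call in GM12878, 35 in HEK293T, 37 in HFF1 and 38 in K562. Of the targets, 10 were called in GM12878, 8 in HEK293T, 9 in HFF1 and 19 in K562. In all 4 lines, 6 of the 9 factor genes, 32 of the 42 partners and 8 of the 25 targets were called. The pattern of TAL1, called in K562 and in no other line, was shared by GATA1 among the partners and by CA1, EPB42, GYPB, HBE1, HBG2, KEL and RHAG, among others, in the list of targets, which encode a carbonic anhydrase, membrane and blood group proteins and globins. It was shared by 1.68% of all genes. The pattern of KLF1, called in no line, was shared by 5 targets and by 0 of the 42 partners.

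The second question was how the neighbourhood of each gene, its body and the 100 kb on either side, differed between lines. The 9 windows held 373 regions. GM12878 had 183 of them, HEK293T 82, HFF1 161 and K562 186, and 68 were called in all 4 lines. In K562 alone there were 52, which is 28.0% of the regions called in K562 there against 25.4% of those over the whole genome. The corresponding shares were 26.2% against 40.6% for GM12878, 24.8% against 50.5% for HFF1 and 2.44% against 10.8% for HEK293T. The median gene of the 9 had 20 regions in K562 against 10 over all genes, 21 against 13 in GM12878, 16 against 14 in HFF1 and 9 against 6 in HEK293T.

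**Figure D2:**
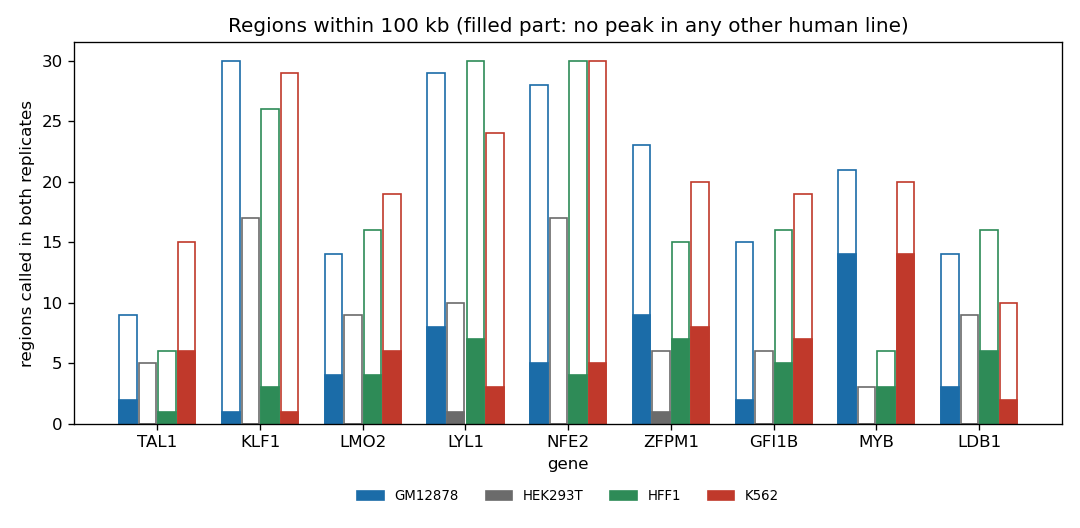
Bars give, for each gene, the number of regions within 100 kb of the gene body called in both libraries of a line, and the filled part is the number with no peak in any library of the other 3 human lines. MYB has 14 such regions in GM12878 and 14 in K562, TAL1 has 6 in K562 against 2 in GM12878, and LDB1 has 2 in K562 against 6 in HFF1.

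Of the 52 regions in K562 alone, 7 lay at a start site of the factor gene itself, 4 at a start of a neighbouring gene and 41 at neither. MYB had 14, ZFPM1 8, GFI1B 7, TAL1 and LMO2 6 each, NFE2 5, LYL1 3, LDB1 2 and KLF1 1. In an alternative added after the data were seen, only peaks were kept that would still pass at the background level of HEK293T. There were then 32 regions in K562 alone, with 6 at MYB, 5 each at LMO2 and ZFPM1, 4 at TAL1, 3 each at GFI1B and LYL1, and 2 each at KLF1, NFE2 and LDB1. The filter also drops peaks of GM12878 and HFF1, so the 32 are not all among the 52. The number went from 14 to 6 at MYB and from 1 to 2 at KLF1, the only one of the 9 genes at which it rose.

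**Figure D3:**
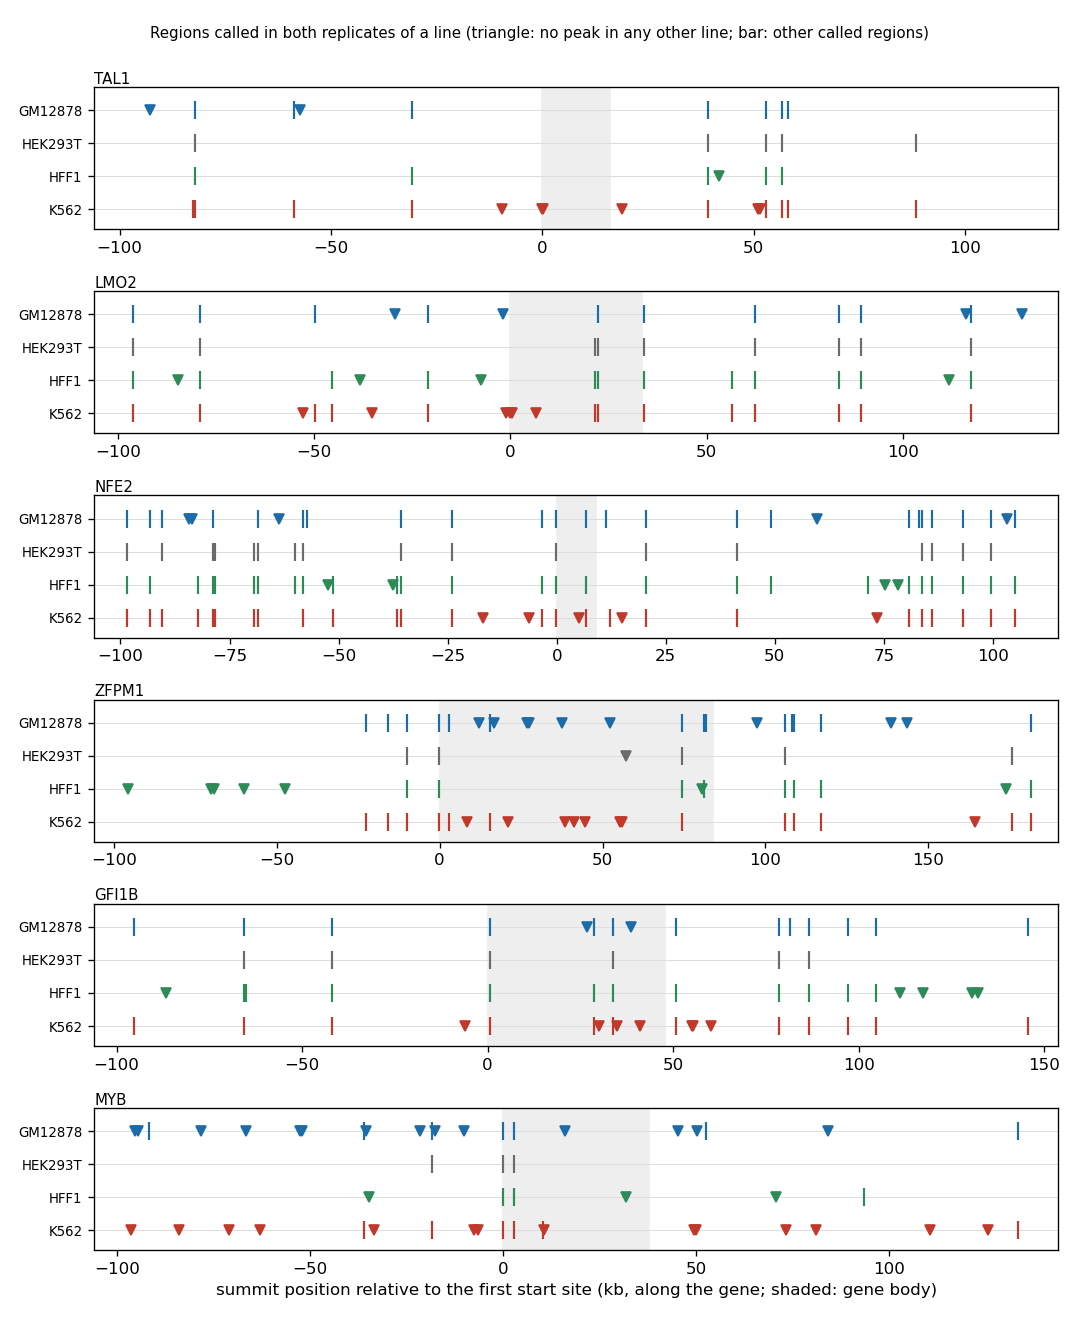
Regions called in both libraries of a line are placed by the distance of their summit from the first start of the gene in kb, along the gene, with the gene body shaded; triangles mark regions without a peak in any other human line and bars all other called regions. Triangles of K562 stand at the first starts of TAL1 and LMO2, run through the body of ZFPM1 from 8.45 to 55.8 kb, and lie on both sides of MYB, where triangles of GM12878 stand at other positions.

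At TAL1 the largest region in K562 alone lay at 50.9 kb, downstream of the gene (chr1:47180924-47182275, between genes). It had 132 and 128 reads and ranked within the top 7.73% and 6.78% of the K562 peaks. An erythroid enhancer of TAL1 is known downstream of the gene. A region beside it at 51.5 kb had 63 and 61 reads, and others in K562 alone lay at 18.7 kb (46 and 32 reads) and at −9.50 kb (39 and 31 reads). These 3 were named after their values were seen. Regions at 39.2 and 52.9 kb, in contrast, were called in all 4 lines.

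At LMO2 the region of highest rank in K562 alone was at −52.8 kb (chr11:33944690-33945248), between genes, with 89 and 86 reads. A region at −20.9 kb was open in GM12878, with 81 and 74 reads, in HFF1, with 57 and 36, and in K562, with 57 and 52, and one at −79.1 kb was called in all lines. At NFE2 the region at −6.24 kb (chr12:54307003-54307446), inside an intron of COPZ1, was in K562 alone with 91 and 84 reads. Its neighbour at −3.44 kb, in the same gene, was called in 3 lines, with 25 and 24 reads in GM12878, 41 and 38 in HFF1 and 109 and 101 in K562. The shared and the K562-alone region of NFE2 thus lay within a few kb of each other.

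ZFPM1 had 8 regions in K562 alone and 9 in GM12878 alone. Of the 8, 7 lay inside the gene, in introns, between 8.45 and 55.8 kb from the first start, and the highest of them had 75 and 59 reads, at 44.6 kb (chosen after its value was seen). GM12878 had 6 of its 9 inside the gene too, at other positions. The intronic region at 15.5 kb was called in both of these lines, with 40 and 43 reads in GM12878 and 79 and 69 in K562.

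GFI1B had 6 regions in K562 alone away from start sites. The one that met the rule for naming was at 60.3 kb (chr9:133003885-133004640), beyond the end of the gene, with 62 and 60 reads. The region at 50.7 kb was called in 3 lines, with 45 and 46 reads in GM12878, 31 and 20 in HFF1 and 68 and 65 in K562. Of the 4 regions of LDB1 away from any start that were called in K562, 2 were in K562 alone, at 62.1 kb with 56 and 59 reads and at 7.84 kb, in an intron, with 59 and 53 reads.

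Most of the regions around MYB were called in the 2 lines of blood origin. HFF1 had 6 called regions in its window and HEK293T 3, against 21 in GM12878 and 20 in K562. The 14 in K562 alone were split evenly, 7 upstream and 7 downstream of the first start, from −96.5 to 125.7 kb, and held 20 to 55 reads. The strongest were at −96.5 kb (chr6:135084561-135084949, an intron of HBS1L, 55 and 51 reads), at 10.6 kb (chr6:135191790-135192585, in MYB, 48 and 49 reads) and at −71.0 kb (chr6:135110069-135110536, between genes, 46 and 38 reads). The 14 in GM12878 alone were at other positions, 10 of them upstream, with 13 to 72 reads. GM12878 and K562 together called 5 regions, at −36.2, −18.4, −0.079, 2.73 and 133.5 kb, of which those away from the start are named after their calls were seen. The interval between HBS1L and MYB is known for enhancers of MYB and for variants that affect fetal haemoglobin.

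LYL1 and KLF1 lie in gene-dense parts of chromosome 19, and few of their regions were in K562 alone. The 3 at LYL1 were all at starts of neighbouring genes, 2 at NFIX, which encodes a nuclear factor I protein, and 1 at NACC1. The single one at KLF1 lay at 46.0 kb, in introns of HOOK2 and MAST1, with 55 and 59 reads, and is named here as the only one, after its values were seen. The window of LYL1 held more regions in GM12878 alone (8) and HFF1 alone (7) than in K562 alone.

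The numbers of peaks in each library were then compared with a test across lines. TAL1 had 10 and 10 peaks within 100 kb in GM12878, 6 and 5 in HEK293T, 7 and 7 in HFF1 and 18 and 18 in K562. MYB had 25 and 28, 4 and 6, 8 and 9, and 28 and 27 in the same order, so that GM12878 and K562 met and both lay far above the other lines. LDB1 had 16 and 15, 10 and 9, 19 and 17, and 12 and 11, with K562 below GM12878 and HFF1 before any scaling by list length.

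**Figure D4:**
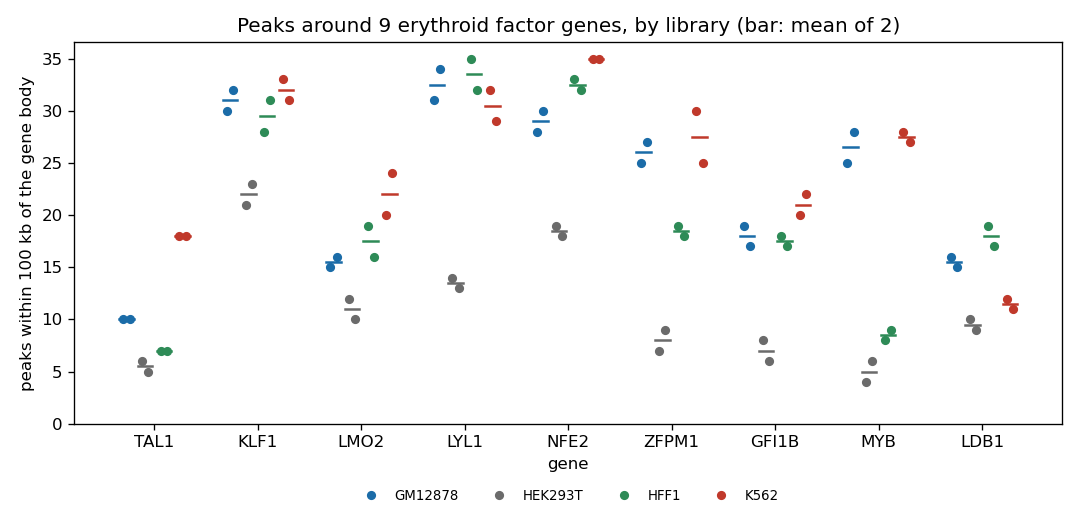
Points are the number of peaks overlapping the gene body and the 100 kb on either side in each library, and bars are the mean of the 2 libraries of a line. TAL1 has 18 peaks in both K562 libraries against 5 to 10 elsewhere, MYB has 25 to 28 peaks in GM12878 and K562 against 4 to 9 in HEK293T and HFF1, and LYL1 has 29 to 35 peaks in GM12878, HFF1 and K562 against 13 and 14 in HEK293T.

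Since lists differ in length, peak numbers were expressed per 100000 peaks of the list, called density here. The density at TAL1 was 9.83 and 9.64 in GM12878, 11.4 and 9.59 in HEK293T, 5.50 and 5.82 in HFF1 and 22.9 and 25.3 in K562. The K562 libraries lay well above the other 6, which overlapped in part. At MYB the density was 24.6 and 27.0 in GM12878, 7.63 and 11.5 in HEK293T, 6.28 and 7.48 in HFF1 and 35.6 and 37.9 in K562. At NFE2 it was 27.5 and 28.9, 36.2 and 34.5, 25.9 and 26.6, and 44.5 and 49.1 in the same order, and at KLF1 29.5 and 30.9, 40.0 and 44.1, 22.0 and 25.8, and 42.0 and 43.5, so that HEK293T and K562 overlapped at KLF1. At LDB1 the density was 15.7 and 14.5 in GM12878, 19.1 and 17.3 in HEK293T, 14.9 and 14.1 in HFF1 and 15.3 and 15.4 in K562. On this scale K562 thus lay above HFF1 and between the GM12878 libraries at LDB1. Density was highest in K562 at 8 of the 9 genes and highest in HEK293T at LDB1. Both K562 libraries exceeded the other 6 at 7 genes, all but KLF1 and LDB1, and at 27.5% of all genes tested.

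The share of the variance between lines (eta squared) was tested by an exact one-sided permutation over the 105 ways of forming 4 pairs from the 8 libraries, with p-values adjusted over all 19867 genes tested. NFE2 (eta squared 0.975) and MYB (0.989) reached the smallest p the design allows, 0.00952 in this permutation test, with an adjusted p of 0.0352. LMO2 (0.877) and LYL1 (0.983) also passed, with an exact permutation p of 0.0190 and an adjusted p of 0.0472. TAL1 (0.988), KLF1 (0.967), ZFPM1 (0.979) and GFI1B (0.919) had an adjusted permutation p of 0.0527 and did not pass, and LDB1 (0.851) had 0.102. A gene at which only 1 line differs can get a p as large as 0.143 in this test, so the adjusted p of TAL1 does not show that its K562 libraries were like the others. In all, 4 of 9 genes passed, beside 40.4% of all genes, which is near the background and says nothing of these genes as a group. All 4 were highest in K562 with both libraries above the other 6. Passing in this way thus held for 4 of the 9 genes, beside 15.5% of all genes. Among the 8024 genes that passed, it held for 3086. With any 1 library of GM12878 or HFF1 left out, 0 genes passed after adjustment in this permutation test, the 9 included, although 10068 to 10084 genes of the whole set had an unadjusted p under 0.05, and with K562 replicate 1 or replicate 2 left out 2 of the 9 passed, beside 22.7% and 20.8% of all genes. Among the partners 17 of 42 passed, 7 of them highest in K562, and among the targets 10 of 25, all 10 highest in K562. At 9 of these 10 targets both K562 libraries lay above the other 6. Over all genes, 3449 of the 8024 that passed were highest in K562.

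The place of K562 depended on the scaling by list length. With numbers of peaks in place of density, both K562 libraries exceeded the other 6 at 4 of the 9 genes, TAL1, LMO2, NFE2 and GFI1B, beside 6.51% of all genes, and LYL1 and LDB1 were highest in HFF1. On that scale 7 of the 9 genes passed the same permutation test, all but KLF1 and LYL1, beside 64.0% of all genes. The adjusted permutation p was 0.0363 at TAL1 and 0.0847 at LYL1.

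The last question was what the regions share in sequence. A set of 10 motifs was searched on both strands in 101 bases around each summit, namely those spelled out above and GCTGAGTCA (NFE2), its core TGAGTCA (AP-1), TGTGGTT (RUNX), CCGGAAGT (ETS), GAGGAAGT (PU.1) and AATCNNNGC (GFI). The GATA site was in 10 of the 52 regions in K562 alone (19.2%), against 21.3% of the 15335 such regions over the genome. It was in 2 of the 48 regions in GM12878 alone (4.17%), in 1 of the 40 in HFF1 alone (2.50%) and in 1 of the 68 called in all 4 lines (1.47%). The same order of shares held over the genome, at 4.46%, 4.09% and 1.61%, so the shares near these genes are not particular to them. A match is a run of letters and not a bound site.

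By gene, the GATA matches in K562 alone fell at MYB in 3 of 14 regions, at TAL1, LMO2 and NFE2 in 2 regions each and at LDB1 in 1 region. The region of LDB1 at 7.84 kb held 2 GATA matches together with a KLF and a MYB match. The E-box with GATA was found once in K562 alone, at the inner promoter of NFE2 (1.92% of 52, against 3.29% of all regions in K562 alone). It was also in 1 of the 40 regions in HFF1 alone (2.50%, against 0.0755% of all regions in HFF1 alone). Of the regions in K562 alone, none of the 8 of ZFPM1 and none of the 7 of GFI1B held the full GATA site. The regions of GFI1B at 41.0 and 55.4 kb are named here after their sequences were seen. They, the GFI1B region at 60.3 kb and that of TAL1 at 50.9 kb held TTATC, the shorter core. That core, a looser search added after the sequences were seen, was in 15 of the 52 regions (28.8%, against 34.1% of all regions in K562 alone).

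The AP-1 core was in 4 of the 52 regions in K562 alone (7.69%, against 9.55% over the genome), among them the LMO2 region at 494 bp. In these windows its share was larger in 2 other lines. It was in 6 of the 48 regions in GM12878 alone (12.5%, against 8.74%) and 5 of the 40 in HFF1 alone (12.5%, against 19.1%). Over the genome the share in GM12878 alone was below that in K562 alone. Of the 2 regions in HEK293T alone, 0 held the core. Of the 68 regions called in all 4 lines, 1 held it (1.47%, against 2.46%). Of the 9 genes, 7 had a promoter in the RefSeq table, with 9 promoters in all. LMO2 and NFE2 had none there. The GATA site was in the first TAL1 promoter and in the LYL1 promoter, where 10.3% of 35116 promoters hold it. The KLF1 promoter held none of the 10 motifs. Its printed sequence does hold TTATC, the shorter GATA core, which was not searched for in the promoters.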

How the data were processed

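The 8 human libraries of short-read ATAC-seq were used, 2 for each of 4 lines. The mouse libraries were not analysed here, and groups come from the labels. Each library has its own peak list, so replicates were not pooled. The submitters' processing notes name cutadapt 3.2, Bowtie2 2.4.2, Picard, MACS2 2.2.7.1 and hg38, with no role or setting. A read shift and the peak threshold are not given in the sources used here. The lowest deposited −log10 q was 2.00 to 2.05. In the 10-column narrowPeak layout, the authors deposited for each peak a score, a fold (ratio of summit to local background), a −log10 p-value and a −log10 q-value, and these served to rank, filter and describe peaks inside 1 list. All peaks lay within the chromosome lengths of hg38.

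Peaks on the autosomes and X were kept. Reads over a summit (pileup) and background were solved from fold and p, on the assumption that the fold is (pileup + 1)/(background + 1) and p a Poisson tail, as MACS2 can compute them. The calling settings are not given, so read numbers and backgrounds hold only under that form, and a solution was found for 100% of peaks in every list. The reads carry no molecular identifiers and may repeat 1 molecule, so no interval is given for pileups. Gene models were from GENCODE 44. Regions are peaks of all 8 human libraries merged at an overlap of at least 1 bp. Peaks per window were divided by the length of the list, in units of 100000 peaks, and eta squared between lines was compared over 105 pairings, with Benjamini-Hochberg adjustment over all genes and a threshold of 0.05. A test of 2 libraries against 2 cannot give a two-sided p below 0.333, so single pairs of lines were not tested. Scripts ran in Python 3.11.15 with numpy 2.4.6, scipy 1.17.1 and pandas 2.3.3, and were tested on simulated data.

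The 9 genes, the comparison lists and the motifs were chosen with earlier results of these data known. All 9 genes are named. Of the lists, a gene is named where its calls over the 4 lines match those of a factor gene not called in all lines or in none. Of the regions, those at a start site of the gene and the 3 of highest −log10 p in K562 away from any start are named, and the text says where another was chosen after its values were seen. Alternatives varied the q threshold (−log10 q of at least 5), list length (40000 peaks), window (50 kb; 500 and 2000 bp), overlap by summit, transcript class, scaling, single libraries and the replicate number as a block. Some items under these rules are not reported here.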

Additional observations from a re-analysis of the deposited data

How the results depend on the processing

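The density test is the result that depends most on the processing. Of the 9 genes, 4 passed the exact permutation test on density, against 7 when peak numbers were not scaled, 0 with the replicate number as a block and 0 to 5 when 1 library was left out. Over all genes, 8024 passed, against 3914 with 40000 peaks per list, 4650 with a window of 50 kb, 12718 without scaling, 0 with the replicate block (where 7809 had an unadjusted permutation p under 0.05) and 0 to 4503 when 1 library was left out. The block allows no p under 0.0417, and the replicate numbers do not pair the libraries: deviations of libraries with the same number correlated between −0.0081 and 0.0324 across genes, under the 0.1 fixed for a pairing. Of the 9 genes, 6 passed the permutation test on density with −log10 q of at least 5 (41.0% of all genes). At the HEK293T background level 6 passed (40.8%), and with a window of 50 kb 3 passed (23.6%). The number of factor genes with both K562 libraries above the other 6 was 7 (27.5% of all genes), and 4 without scaling (6.51%). It was 8 with −log10 q of at least 5 (28.6%), with 40000 peaks per list (22.3%) and without HEK293T replicate 2 (31.6%). At the HEK293T background level it was 9 (34.9%). Regions called in the 9 windows went to 84 in GM12878 and 68 in HFF1 with 40000 peaks per list, and with a window of 50 kb, which covers less sequence, to 102 in GM12878, 48 in HEK293T, 85 in HFF1 and 121 in K562. The number of regions in K562 alone was 52, and 32 at the HEK293T background level. Of the counts under all alternatives, 142 values stayed within 1.5 times the reported ones and 28 did not. Of the eta squared values of single genes, 84 stayed on their side of the threshold, 17 crossed to pass it and 34 crossed to miss it. The line of highest density changed at 3 genes: at KLF1 from K562 to HEK293T without HEK293T replicate 1 and without K562 replicate 2, at LYL1 from K562 to HFF1 without scaling, and at LDB1 from HEK293T to GM12878 with 40000 peaks per list, to HFF1 without scaling and to K562 at the HEK293T background level. Where the change is not by construction, the cause was not tested. Depth limits HEK293T most. The 32 regions counted in K562 alone under that filter had K562 peaks that would have passed at the HEK293T background level. For regions below that level, a lack of a peak in HEK293T does not show closed chromatin.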
